A study of Mus musculus with 16 samples.

Results

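The miR-30 family is a group of small RNAs that share the bases with which they recognise target messages. Its members here were the 8 mouse microRNA (miRNA) strands that the array names mmu-miR-30a, mmu-miR-30a*, mmu-miR-30b, mmu-miR-30b*, mmu-miR-30c, mmu-miR-30d, mmu-miR-30e and mmu-miR-30e*, chosen by name from its 611 mouse miRNAs and written without the prefix from here on. The 5 names without a star are guide strands, the arms mainly loaded onto Argonaute, and the 3 starred names are the passenger strands of miR-30a, miR-30b and miR-30e. The samples were carotid arteries, 16 in all, from female ApoE-/- mice on the C57BL/6 background, which lack apolipoprotein E and develop atherosclerosis. All mice, controls included, were kept on a western-type diet. Arteries left uninjured (n = 3, aged 6 to 8 weeks) were the control for arteries taken at day 1 (n = 3, aged 8 weeks), day 7 (n = 3), day 14 (n = 3) and day 28 (n = 4) after a wire was used to injure the vessel, the last 3 groups again aged 6 to 8 weeks. RNA of a whole artery was hybridized to 1 array, so every value is a sum over the cells of the vessel wall and whatever adhered to it.

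In animals a miRNA gene is transcribed as a hairpin, cut by Drosha and Dicer, and left as a duplex from which the guide is retained while the passenger is mostly discarded. The miR-30 guides are abundant in heart muscle, among other tissues. In rat heart cells miR-30c, with miR-133, represses connective tissue growth factor, a driver of matrix production. In human coronary smooth muscle cells miR-30b and miR-30c repress Runx2, a transcription factor of calcification. In zebrafish and human endothelium the family represses the Notch ligand Dll4, which restrains vessel sprouting.

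The mature sequences below are shown because the shared seed defines the family and because the close relatives among them bear on how far the array can tell them apart. In the RefSeq table used here (GRCm38.p6) 5 of the 8 strands were matched by name. Capitals mark the seed, bases 2 to 8 from the 5′ end.
miR-30a: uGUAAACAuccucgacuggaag
miR-30c: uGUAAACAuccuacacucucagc
miR-30e: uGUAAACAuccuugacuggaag
miR-30a*: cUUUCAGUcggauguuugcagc
miR-30e*: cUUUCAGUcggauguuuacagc
The 3 guides shown carry 1 seed and the 2 passengers another. Counted from the 5′ end, miR-30e differs from miR-30a only by C13U, and miR-30e* differs from miR-30a* only by G18A. miR-30c shares the first 12 bases of miR-30a and then diverges. Whether probes for such close relatives also bind the other strand was not tested, so the levels of miR-30a and miR-30e, and of their passengers, are uncertain to that degree.

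miR-30a lies at chr1:23272274-23272295 on the plus strand, and miR-30e at chr4:120772660-120772681 on the minus strand. miR-30c is made by 2 genes, at chr1:23291714-23291736 (plus strand) and chr4:120769584-120769606 (minus strand), so 1 measured level of miR-30c holds the output of both. Mir30a and Mir30c-2 are thus on chromosome 1, and Mir30c-1 and Mir30e are both within the span of Nfyc, a gene for a subunit of the CCAAT-binding factor, on chromosome 4. Mir30b and Mir30d neighbour each other on chromosome 15. The hairpins of Mir30a and Mir30e are printed with both mature arms in capitals, because guide and passenger of these genes are compared with each other further on.
Mir30a: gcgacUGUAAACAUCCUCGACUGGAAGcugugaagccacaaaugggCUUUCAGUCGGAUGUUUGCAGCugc
Mir30e: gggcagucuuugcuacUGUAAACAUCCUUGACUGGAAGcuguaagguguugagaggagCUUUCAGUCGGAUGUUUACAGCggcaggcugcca

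Levels are given as log2 of the signal after dividing each array by the 75th percentile of the 395 probes detected clearly over background in every sample. That percentile ran from 401 to 1432 intensity units. Before scaling, the brightest member, miR-30a, gave between 2959 and 10270 intensity units, and the faintest values were 23.03 units for miR-30b* and 23.3 units for miR-30e*. All 8 members were well above background on all 16 arrays and none of their spots was saturated, so no member entered the tests through 1 group alone. Of the miRNAs that mark the vessel wall, miR-143 and miR-145 of smooth muscle and miR-126-3p of endothelium were well above background on all 16 arrays. In contrast, miR-126-5p was so on 3 arrays only. Detection does not tell the artery from surrounding tissue. The markers miR-193b (fat), miR-133a (striated muscle) and miR-124 (nerve) were also well above background on all 3 uninjured arrays. Each array's median correlation with its fellows in the group, taken across miRNAs (no independent replicates), was between 0.949 and 0.987. The lowest values belonged to day 14 replicates 1 and 3. On day 14 replicate 1 the nerve miRNAs miR-124 and miR-137 lay at the floor, and day 28 replicate 2 had the highest miR-142-3p of its group (1.52). The arrays came from 2 slides: day 1, day 7 and day 28 replicates 1 and 2 were on slide 1, and uninjured, day 14 and day 28 replicates 3 and 4 on slide 2. Only day 28 lies on both slides. A fit with slide as a block thus adjusts day 1 and day 7 against uninjured only through the day 28 arrays, 2 per slide.

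Most of the family was lower at day 7 and day 14 after injury and close to the uninjured level at day 28, although without scaling of the arrays miR-30b, miR-30b*, miR-30e and miR-30e* turned to higher at day 7 and miR-30b and miR-30b* at day 14. Tested within arrays, miR-30b changed unequally with each of the 4 other guides, with 3 of them under quantile normalization, and with miR-30a and miR-30c alone once slide was included. Pairs of miRNAs outside the family were not tested in this way. At day 7, 7 of the 8 members were lower than in uninjured artery and 0 were higher (limma, Benjamini-Hochberg adjusted p under 0.05), where 22.4% of the 322 tested miRNAs were lower and 27.6% higher. At day 14 again 7 were lower and 0 higher, against 18.9% lower and 20.2% higher among all tested. At day 1, 3 members were lower and 1 higher, beside 12.7% lower and 19.6% higher. At day 28 only miR-30a was lower and 0 members were higher, beside 9.32% lower and 16.8% higher. With slide as a block only miR-30a, miR-30a*, miR-30c and miR-30d kept their calls at day 7. No member was then called at day 1 or day 28, and the 7 calls at day 14 stayed. For day 1 and day 7 this adjustment is not a direct one, since it rests on the day 28 arrays alone. Over the 5 guides the median log2 difference from uninjured was -0.11 for day 1, -1.07 for day 7, -0.71 for day 14 and -0.18 for day 28, where the median over all tested miRNAs was 0.24, 0.0036, 0 and 0.036. Tested jointly over the 4 days (limma's F test), the fit called all 8 members, and 61.2% of all tested miRNAs. Arrays lay wholly below the uninjured ones for 4, 7, 7 and 2 of the 8 members on the 4 days (15.2%, 31.7%, 23.3% and 10.9% of all tested miRNAs) and wholly above them for 1, 0, 0 and 0 (32%, 29.5%, 27.6% and 21.1%). In RNA of whole arteries, fewer cells of a type and less of the miRNA per cell cannot be told apart.

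**Figure D1:**
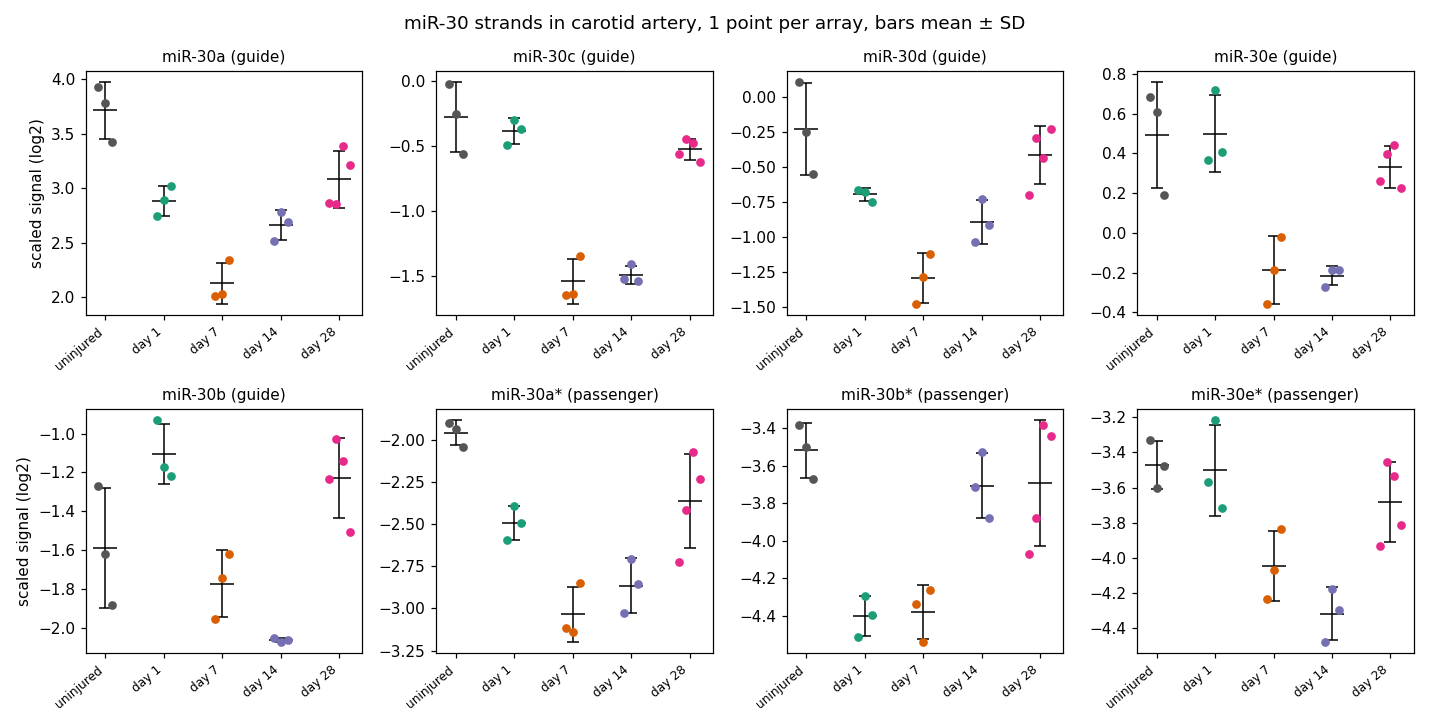
Scaled log2 signal of each miR-30 strand (vertical axis) in uninjured, day 1, day 7, day 14 and day 28 arteries, 1 point per array, with mean and SD as bars. The 3 day 7 arrays of miR-30a lie between 2.01 and 2.34 and the uninjured arrays between 3.43 and 3.93; miR-30b is highest at day 1 and day 28. Levels depend on the scaling of the arrays, and without it miR-30b, miR-30b*, miR-30e and miR-30e* were higher at day 7 than in uninjured artery.

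How the arrays were scaled decided part of this. The uninjured arrays were the dimmest as a group, so leaving the arrays unscaled moved the median over all tested miRNAs to 0.86 at day 7 and 0.52 at day 14. The guide median then stood at -0.10 and -0.047, and 0 members were called on any day. The share of all tested miRNAs called without scaling is not given here. Set against the median of all tested miRNAs, however, the guide median differed by -1.07 at day 7 with the main scaling, by -1.11 with the 75th percentile of every mouse probe and with the median, by -1.02 with quantile normalization and by -0.97 without scaling. At day 14 these 5 values lay between -0.57 and -0.76. All 8 members were below the median of all tested miRNAs at day 7 and at day 14 under each of the 5 scalings. At day 1 the guide median differed from it by -0.44 to -0.020 and at day 28 by -0.26 to -0.17, with 6 or 7 of the 8 members below it at day 1 and 7 at day 28. The differences that follow are between scaled levels, with each array divided by its 75th percentile, and are not taken relative to that median; relative to it, for example, miR-30c stood at -0.35 and miR-30e at -0.24 at day 1.

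**Figure D2:**
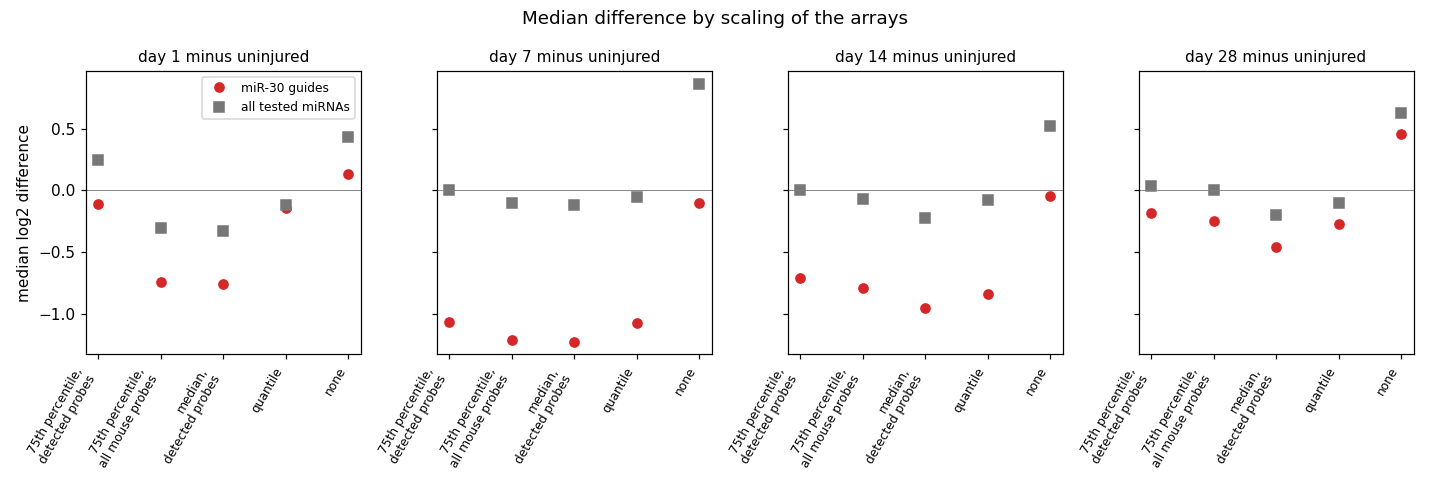
Median log2 difference from uninjured artery (vertical axis) over the 5 miR-30 guides (circles) and over all 322 tested miRNAs (squares) under 5 ways of scaling the arrays, 1 panel per day. At day 7 and day 14 the guides lie 0.57 to 1.11 below all tested miRNAs under every scaling, although both shift upward without scaling.

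miR-30a had the largest scaled difference of the 8 members from uninjured artery at day 7, although with slide as a block that of miR-30c was larger (log2 -1.15 for miR-30a and -1.31 for miR-30c). Its scaled log2 levels were 3.93, 3.79 and 3.43 in uninjured arteries, 2.74, 2.89 and 3.02 at day 1, 2.01, 2.03 and 2.34 at day 7, 2.51, 2.78 and 2.69 at day 14, and 2.87, 2.86, 3.39 and 3.21 at day 28. Every array of an injured artery lay below all 3 uninjured arrays. It was 1.78-fold lower at day 1 (log2 -0.83 ± 0.18 SE, limma adjusted p = 0.00302), 3.01-fold lower at day 7 (log2 -1.59 ± 0.18, adjusted p = 1.01e-05) and 2.08-fold lower at day 14 (log2 -1.06 ± 0.18, adjusted p = 0.000442). At day 28 it was 1.55-fold lower (log2 -0.63 ± 0.17, adjusted p = 0.0134). Unscaled, it was lower by log2 -0.59, -0.62 and -0.39 at day 1, day 7 and day 14 and by 0.0040 higher at day 28, with no call. With slide as a block the difference was -0.39 at day 1 (adjusted p = 0.342), -1.15 at day 7 (adjusted p = 0.00376) and -0.41 at day 28 (adjusted p = 0.115), so the calls at day 1 and day 28 ended. The call at day 28 also ended without uninjured replicate 1 (log2 -0.52, adjusted p = 0.0650) and without uninjured replicate 2 (log2 -0.60, adjusted p = 0.0521).

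miR-30c, the guide with genes at 2 loci, was lower at day 7 and day 14 and was not called at day 1 or day 28. Its levels were -0.022, -0.25 and -0.56 in uninjured arteries, -0.50, -0.30 and -0.37 at day 1, -1.65, -1.64 and -1.35 at day 7, -1.53, -1.41 and -1.54 at day 14, and -0.56, -0.45, -0.48 and -0.62 at day 28. All day 7 and day 14 arrays were below all arrays of the other 3 groups, which overlapped each other. The log2 difference from uninjured was -0.11 ± 0.14 SE at day 1 (limma adjusted p = 0.554), -1.27 ± 0.14 at day 7 (2.40-fold lower, adjusted p = 9.13e-06), -1.22 ± 0.14 at day 14 (2.32-fold lower, adjusted p = 2.05e-05) and -0.25 ± 0.13 at day 28 (adjusted p = 0.177). Leaving out any 1 array kept both calls, and with slide as a block the day 7 difference was -1.31 (adjusted p = 0.00113). The arrays of day 14 and the uninjured ones share slide 2, and within that slide the day 14 difference was -1.22 (adjusted p = 0.00185). Without scaling miR-30c was lower by log2 -0.30 and -0.55 at day 7 and day 14, with no call, and higher by 0.13 and 0.39 at day 1 and day 28.

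miR-30d had levels of 0.11, -0.25 and -0.55 in uninjured arteries, -0.66, -0.68 and -0.75 at day 1, -1.48, -1.28 and -1.12 at day 7, -1.04, -0.73 and -0.91 at day 14, and -0.70, -0.29, -0.43 and -0.23 at day 28. The day 1, day 7 and day 14 arrays were all below the uninjured ones, and those of day 28 overlapped them. By limma it was 2.09-fold lower at day 7 (log2 -1.07 ± 0.17 SE, adjusted p = 0.000238) and 1.58-fold lower at day 14 (log2 -0.66 ± 0.17, adjusted p = 0.00912). The differences at day 1 (log2 -0.47 ± 0.17, adjusted p = 0.0577) and day 28 (log2 -0.18 ± 0.16, adjusted p = 0.458) missed the threshold, although at day 1 the call was made without uninjured replicate 3 (log2 -0.63, adjusted p = 0.0148) and without day 28 replicate 1 (log2 -0.47, adjusted p = 0.0431). With slide as a block the day 7 difference was -0.90 (adjusted p = 0.0292). Its direction at day 28 turned without scaling (log2 0.45).

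miR-30e, which differs from miR-30a by 1 base, moved less. Levels were 0.69, 0.61 and 0.19 in uninjured arteries, 0.37, 0.72 and 0.41 at day 1, -0.36, -0.19 and -0.018 at day 7, -0.27, -0.19 and -0.19 at day 14, and 0.26, 0.40, 0.44 and 0.23 at day 28. Both middle groups lay wholly below the uninjured arrays, and the day 1 and day 28 arrays overlapped them. The guide was 1.60-fold lower at day 7 (log2 -0.68 ± 0.15 SE, limma adjusted p = 0.00201) and 1.63-fold lower at day 14 (log2 -0.71 ± 0.15, adjusted p = 0.00228). At day 1 the difference was 0.0050 ± 0.15 (adjusted p = 1) and at day 28 -0.16 ± 0.14 (adjusted p = 0.448). With slide as a block the day 7 call ended (log2 -0.67, adjusted p = 0.0585), and without scaling the day 7 direction turned (log2 0.28).

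miR-30b was the only guide without a call at day 7. It read -1.27, -1.62 and -1.88 in uninjured arteries, -0.93, -1.17 and -1.22 at day 1, -1.95, -1.74 and -1.62 at day 7, -2.05, -2.07 and -2.06 at day 14, and -1.23, -1.03, -1.14 and -1.51 at day 28. The day 1 arrays were all above the uninjured arrays and the day 14 arrays all below them, while those of day 7 and day 28 overlapped them. The log2 difference was 0.48 ± 0.17 SE at day 1 (1.40-fold higher, limma adjusted p = 0.0426), -0.18 ± 0.17 at day 7 (adjusted p = 0.407), -0.47 ± 0.17 at day 14 (1.39-fold lower, adjusted p = 0.0394) and 0.36 ± 0.16 at day 28 (adjusted p = 0.110). With slide as a block the day 7 difference was -0.37 (limma adjusted p = 0.344), and miR-30e was then not called at day 7 either.

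Both calls of miR-30b were fragile. The one at day 1 ended with slide as a block (log2 0.29, adjusted p = 0.582), and its direction turned when arrays were scaled to the 75th percentile of every mouse probe (log2 -0.15) or to the median (log2 -0.17), while relative to the median of all tested miRNAs it stayed higher by 0.15 to 0.29 under all 5 scalings. It also ended when 1 of 9 arrays was left out: uninjured replicates 2 (log2 0.47, adjusted p = 0.116) and 3 (0.34, 0.136), day 1 replicates 1 (0.39, 0.147), 2 (0.51, 0.0767) and 3 (0.54, 0.0544), and day 7 replicate 2, day 14 replicates 1 and 2 and day 28 replicate 3, which left the difference at 0.48 with adjusted p between 0.0506 and 0.056. The call at day 14 ended without uninjured replicate 1 (log2 -0.31, adjusted p = 0.181) or 2 (-0.49, 0.0790), without day 14 replicate 1 (-0.48, 0.0874), 2 (-0.47, 0.0872) or 3 (-0.47, 0.0781), and without day 1 replicate 2 (-0.47, 0.0509) or day 28 replicate 3 (-0.47, 0.0507). Within slide 2 the day 14 difference was -0.47 with adjusted p = 0.0787, and unscaled it was 0.19.

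**Figure D3:**
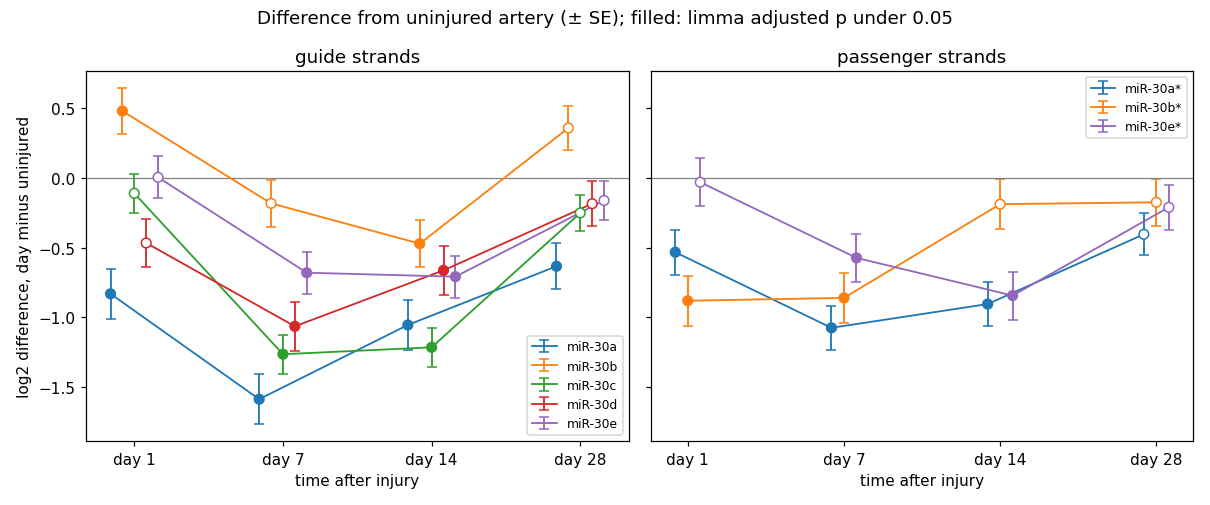
Log2 difference from uninjured artery (vertical axis, ± SE of the fit) at each day for the 5 guides (left) and 3 passengers (right); filled points had limma adjusted p under 0.05. miR-30a, miR-30c, miR-30d and miR-30e are lowest at day 7 or day 14, from -0.68 for miR-30e to -1.59 for miR-30a at day 7, and miR-30b runs above them; without scaling miR-30b, miR-30b*, miR-30e and miR-30e* turn to higher at day 7.

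Among the passengers, miR-30a* ran with its guide. It had levels of -1.90, -1.94 and -2.04 in uninjured arteries, -2.59, -2.39 and -2.49 at day 1, -3.12, -3.14 and -2.85 at day 7, -3.03, -2.71 and -2.86 at day 14, and -2.73, -2.42, -2.07 and -2.23 at day 28. Every injured array was below the 3 uninjured arrays. By limma miR-30a* was lower at day 1 (log2 -0.53 ± 0.16 SE, adjusted p = 0.0237), day 7 (2.11-fold, log2 -1.08 ± 0.16, adjusted p = 0.000105) and day 14 (1.87-fold, log2 -0.91 ± 0.16, adjusted p = 0.000633), and missed the threshold at day 28 (log2 -0.40 ± 0.15, adjusted p = 0.0620). The day 1 call ended without uninjured replicates 1 (log2 -0.50, adjusted p = 0.0691) or 2 (-0.52, 0.0700) and without day 1 replicates 1 (-0.48, 0.0751) or 3 (-0.53, 0.0523). The block for slide moved the day 1 difference to -0.11 (adjusted p = 0.827) and the day 7 difference to -0.66 (adjusted p = 0.0324).

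miR-30e* was called lower at day 7 and day 14. It read -3.33, -3.60 and -3.48 in uninjured arteries, -3.57, -3.22 and -3.72 at day 1, -4.23, -4.07 and -3.84 at day 7, -4.48, -4.17 and -4.30 at day 14, and -3.93, -3.45, -3.53 and -3.81 at day 28. The day 7 and day 14 arrays were all below the uninjured ones. Its difference was -0.030 ± 0.17 SE at day 1 (limma adjusted p = 0.924), -0.57 ± 0.17 at day 7 (adjusted p = 0.0135), -0.84 ± 0.17 at day 14 (adjusted p = 0.00169) and -0.21 ± 0.16 at day 28 (adjusted p = 0.398). Without uninjured replicate 1 (log2 -0.50, adjusted p = 0.0555) or day 7 replicate 1 (-0.48, 0.0614) the day 7 call ended, as it did with slide as a block (-0.55, adjusted p = 0.178). Without scaling its differences were 0.21, 0.39, -0.18 and 0.43 on the 4 days.

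miR-30b* took another course. Levels were -3.38, -3.50 and -3.67 in uninjured arteries, -4.51, -4.30 and -4.39 at day 1, -4.34, -4.54 and -4.26 at day 7, -3.71, -3.53 and -3.88 at day 14, and -4.07, -3.88, -3.38 and -3.44 at day 28. The day 1 and day 7 arrays lay below all uninjured ones, and the day 14 and day 28 arrays overlapped them. It was 1.84-fold lower at day 1 (log2 -0.88 ± 0.18 SE, limma adjusted p = 0.00223) and 1.82-fold lower at day 7 (log2 -0.86 ± 0.18, adjusted p = 0.00137), with -0.19 ± 0.18 at day 14 (adjusted p = 0.473) and -0.17 ± 0.17 at day 28 (adjusted p = 0.509). Within day 28, the 2 arrays of slide 1 averaged -3.97 and those of slide 2 averaged -3.41 (slide term, limma adjusted p = 0.13). Of the 322 tested miRNAs, 0 were called for slide. Day and slide cannot be told apart directly here, because day 1 and day 7 lie on slide 1 and the uninjured arrays on slide 2. With slide as a block the differences were -0.32 at day 1 (adjusted p = 0.366) and -0.30 at day 7 (adjusted p = 0.331), and both calls ended. Unscaled, its differences were -0.64, 0.10, 0.47 and 0.46 on the 4 days.

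Guide and passenger come from the same hairpin, and the difference between them within an array is left as it is by scaling each array with 1 factor, but not by quantile normalization, which moves bright and dim signals unequally. The absolute size of such a difference depends on the probes, so only its change between groups is read. For miR-30b the guide minus passenger difference was 3.58, 3.13 and 3.17 at day 1, against 2.11, 1.88 and 1.79 in uninjured arteries, and the groups did not overlap. That change of 1.36 ± 0.24 SE (limma adjusted p = 0.000943) was 1 of 11 called at day 1 among the 41 strand pairs on the array, 26.8%. At day 7 the miR-30b difference was 2.38, 2.80 and 2.65, higher by 0.68 ± 0.24 than in uninjured arteries (adjusted p = 0.0319). In the fit with slide as a block these changes were 0.61 (adjusted p = 0.206) and -0.076 (adjusted p = 0.832), so both calls ended and the second turned. Under quantile normalization, added after seeing the data, the miR-30b changes were 1.62 at day 1 (adjusted p = 0.000145) and 0.63 at day 7 (adjusted p = 0.0606). Averaging over all probes of a miRNA left 0.88 at day 1 (adjusted p = 0.00222) and 0.15 at day 7 (adjusted p = 0.552). That average takes in miR-30b* probes that lay at the floor in all groups and so pull its change toward 0. Only 2 of the 4 miR-30b* probes were usable, with differences of -0.79 and -0.88 at day 1 and of -0.71 and -0.86 at day 7.

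The miR-30a pair differed at day 7 in the other direction. Its guide minus passenger difference was 5.13, 5.16 and 5.19 at day 7, against 5.83, 5.72 and 5.47 in uninjured arteries. All 3 day 7 arrays were below the uninjured ones, by -0.51 ± 0.12 SE (limma adjusted p = 0.0052), where 41.5% of the strand pairs were called at day 7; with slide as a block the change was -0.49 (adjusted p = 0.0757) and under quantile normalization -0.34 (adjusted p = 0.311), so either ended the call. At day 1 the miR-30a change was -0.30 ± 0.12 (adjusted p = 0.0766), and quantile normalization turned it to 0.66 (adjusted p = 0.05). The median change over all 41 strand pairs was -0.34 at day 1, near that of miR-30a, and 0.11 at day 7. The miR-30e pair changed by -0.11 ± 0.14 at day 7 and by 0.0352 to 0.14 on the other days, with no call (adjusted p from 0.539 to 0.838), although quantile normalization gave a call at day 1 (0.66, adjusted p = 0.0383). Averaging over all probes gave a call of the miR-30e pair at day 7 (-0.50, limma adjusted p = 0.0182). That average takes in a miR-30e* probe that lay at the floor in all groups. Jointly over the 4 days the F test called 61% of the pairs, among them those of miR-30a (adjusted p = 0.0216) and miR-30b (adjusted p = 0.000534). No miR-30 pair was called at day 14, where 22% of all pairs were, or at day 28, where 7.32% were. The call of miR-30b at day 7 ended without uninjured replicate 2 (0.66, adjusted p = 0.0849) or 3 (0.61, 0.112) and without day 7 replicate 2 (0.58, 0.117) or 3 (0.66, 0.0827).

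**Figure D4:**
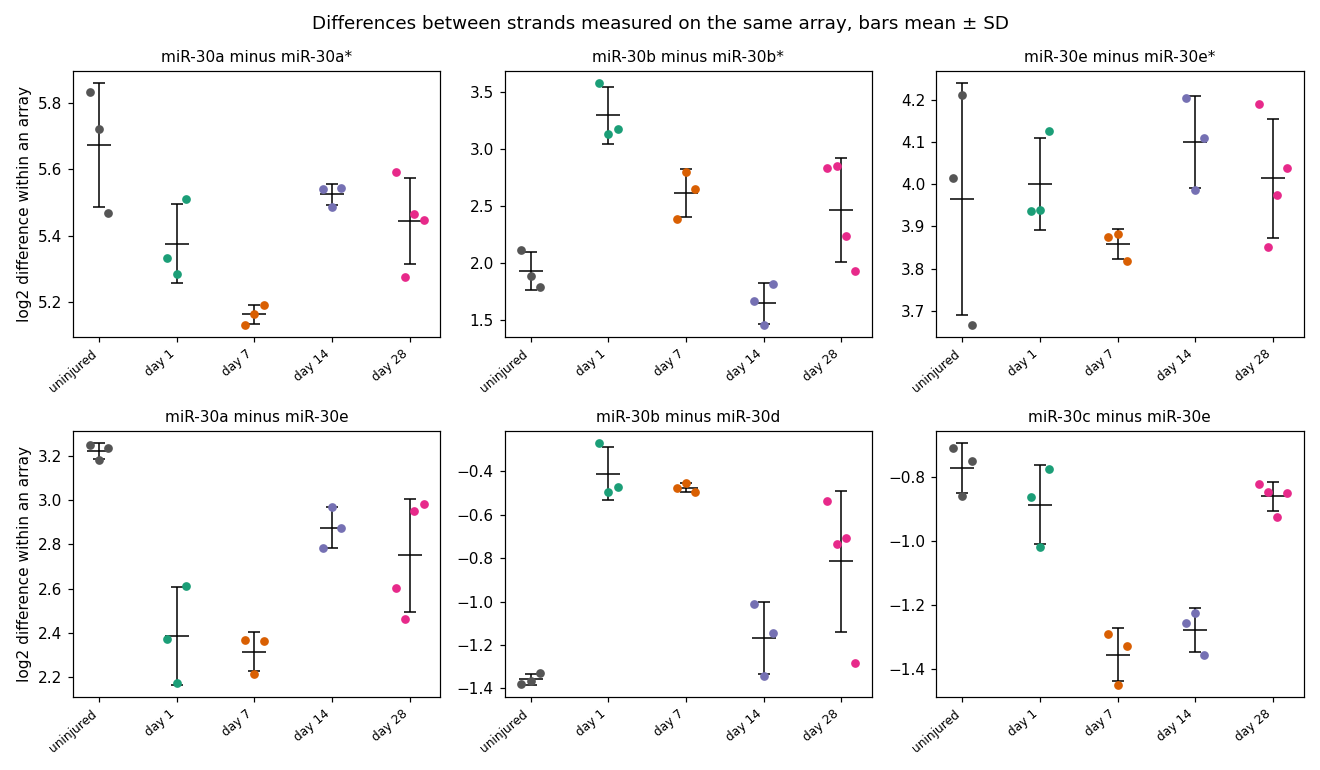
Log2 differences measured within each array (vertical axis): guide minus passenger for 3 hairpins (top) and 3 of the guide pairs (bottom), 1 point per array, mean and SD as bars, groups in time order. miR-30b minus miR-30b* is 3.13 to 3.58 at day 1 and 1.79 to 2.11 in uninjured arteries; miR-30c minus miR-30e is lowest at day 7 and day 14.

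The guides also changed unequally among themselves. For each of the 10 pairs of guides the difference within an array was compared over the 5 groups with a permutation test (100000 resamples), and all 10 differed between groups (Benjamini-Hochberg adjusted p from 5e-04 for miR-30b minus miR-30c to 0.0318 for miR-30a minus miR-30d). Under quantile normalization 8 of the 10 did, without miR-30a minus miR-30d (adjusted p = 0.0531) and miR-30b minus miR-30e (adjusted p = 0.175). When slide was included and labels were permuted within slides (10000 resamples), 6 of the 10 pairs remained below an adjusted p of 0.05. These were miR-30c against each of the 4 others (adjusted p from 0.0015 to 0.00325), miR-30a minus miR-30b (adjusted p = 0.0495) and miR-30a minus miR-30e (adjusted p = 0.0434). Pairs of other miRNAs were not tested in this way, so unequal change is not shown to be particular to this family. The F test over the 4 days called 61.2% of all tested miRNAs and 61% of the strand pairs. miR-30c minus miR-30e was -1.29, -1.45 and -1.33 at day 7, against -0.71, -0.86 and -0.75 in uninjured arteries. At day 14 it was -1.26, -1.22 and -1.36, so both groups lay wholly below the uninjured arrays, and at day 28 it had returned among or just below them (-0.92 to -0.82). The difference between miR-30a and miR-30e, the pair separated by a single base, was 2.37, 2.17 and 2.61 at day 1 and 2.37, 2.21 and 2.36 at day 7, against 3.25, 3.18 and 3.24 in uninjured arteries. Those arrays did not overlap; with slide in the fit the changes of -0.84 and -0.91 became -0.40 and -0.47.

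The genes of miR-30b and miR-30d are adjacent. The within-array difference between these guides was -0.27, -0.49 and -0.47 at day 1 and -0.48, -0.45 and -0.50 at day 7, against -1.38, -1.37 and -1.33 in uninjured arteries. It was thus higher by 0.95 and 0.88 (0.59 and 0.52 with slide in the fit), with all arrays apart. The permutation test of this pair over the 5 groups gave an adjusted p of 0.00189, and 0.14 with slide included, so the call ended; the uninjured arrays lie on the other slide from those of day 1 and day 7. At day 14 it was -1.01, -1.34 and -1.15 and overlapped the uninjured arrays. As a description over the 16 arrays, miR-30b and miR-30d correlated with r = 0.50, miR-30c and miR-30e with r = 0.96, miR-30a and miR-30a* with r = 0.96, miR-30e and miR-30e* with r = 0.91, and miR-30b and miR-30b* with r = -0.17. These 16 points share arrays, slides and scaling and fall in 5 groups.

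Between successive days, 7 of the 8 members were lower at day 7 than at day 1 (24.5% of all tested miRNAs were) and 0 were higher (18.6%). Both groups lie on slide 1, and the arrays were wholly apart for these 7 (35.4% of all tested were lower and 26.7% higher in this sense). The largest of these differences was that of miR-30c, log2 -1.16 ± 0.14 SE (limma adjusted p = 2.93e-05), and the exception was miR-30b* at 0.0205 ± 0.18 (adjusted p = 0.949). With the arrays scaled to their median or to all mouse probes only 1 member was called here, and without scaling 0 were, with miR-30a*, miR-30b, miR-30d, miR-30e and miR-30e* higher by 0.0362 to 0.18. From day 7 to day 14 only miR-30b* was called, as higher at day 14 (log2 0.67 ± 0.18, adjusted p = 0.0366; 4.04% of all tested were higher and 6.21% lower), with 0.11 when slide was a block. For 1 member the day 14 arrays lay wholly below those of day 7 and for 3 wholly above (23.3% and 12.7% of all tested). Without 1 array the miR-30b* call ended for uninjured replicate 2 (0.67, adjusted p = 0.0508), day 7 replicates 1 (0.69, 0.0549), 2 (0.59, 0.139) and 3 (0.73, 0.0607), and day 14 replicates 1 (0.68, 0.0638) and 2 (0.58, 0.163). In the comparison of day 7 with day 1, miR-30a* lost its call without day 1 replicate 2 (-0.49, 0.0562) or day 7 replicate 2 (-0.49, 0.0531), miR-30d without day 7 replicate 1 (-0.51, 0.0550), and miR-30e* without day 1 replicate 2 (-0.40, 0.0971) or day 7 replicates 1 (-0.45, 0.0782) or 2 (-0.53, 0.0553).

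At day 28, 5 of the 8 members were higher than at day 14 and 0 lower, where 9.94% of all tested miRNAs were higher and 5.59% lower. miR-30c was higher by log2 0.97 ± 0.13 SE (limma adjusted p = 0.00119), miR-30b by 0.83 ± 0.16 (adjusted p = 0.00466), miR-30e* by 0.63 ± 0.16 (adjusted p = 0.0189), miR-30e by 0.55 ± 0.14 (adjusted p = 0.0200) and miR-30a* by 0.50 ± 0.15 (adjusted p = 0.0382). The day 28 arrays of miR-30b, miR-30c, miR-30e and miR-30e* lay wholly above those of day 14, and miR-30a* overlapped by 1 array. Over the 8 members 6 were wholly above and 0 wholly below (15.5% and 9.01% of all tested). Without 1 array, miR-30e lost its call for day 14 replicates 1 (0.52, adjusted p = 0.0802) and 2 (0.56, 0.0559) and day 28 replicate 3 (0.51, 0.0518), and miR-30e* for day 14 replicate 1 (0.55, 0.0956) and day 28 replicates 2 (0.56, 0.0516) and 3 (0.58, 0.0518). The call of miR-30a* ended for any of the 7 arrays of both groups except day 28 replicate 1, and for uninjured replicate 2 and day 7 replicate 1 (log2 0.40 to 0.58, adjusted p from 0.0509 to 0.181). Without day 14 replicate 1 and day 28 replicate 2, the arrays that stood apart, 2 members were called. With slide as a block 4 members were called: miR-30a* (log2 0.71, adjusted p = 0.0138), miR-30b (0.73, 0.0301), miR-30c (0.94, 0.0112) and, newly, miR-30a (0.64, 0.0342), while the calls of miR-30e (0.55, 0.0718) and miR-30e* (0.64, 0.0703) ended. Within slide 2 alone, with 2 day 28 arrays and 3 day 14 arrays, 0 were called, at adjusted p from 0.0668 to 0.246. Of the 5 the directions held under all 5 scalings, and miR-30b and miR-30c kept their calls when any 1 array was left out.

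The other probes of the members were compared with the brightest one, which stands for the miRNA. Of 19 probes for the 8 strands, 16 were well above background on all 16 arrays. The 2 other probes of miR-30a gave day 7 differences of -1.33 and -1.38 beside -1.59, and the second probes of miR-30c and miR-30d gave -1.15 and -1.05 beside -1.27 and -1.07. The second probe of miR-30e gave -0.89 at day 7 and -0.23 at day 1, beside -0.68 and 0.0050. miR-30b at day 1 was higher on both its probes, by 0.45 and 0.48. miR-30b* had 2 usable probes of 4, with day 1 differences of -0.79 and -0.88, and miR-30e* had 1 usable probe of 2. Between spots of a probe on an array, the median coefficient of variation ran from 5.64% for miR-30a to 24.2% for miR-30e*.

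Markers of several cell types differed too, not always on the days on which the family did. The smooth muscle miRNAs miR-143 and miR-145 were both lower at day 7, day 14 and day 28 (2 of 2), with a summed scaled signal of 1.54 to 1.80 at day 7 and of 1.06 on the lowest day 14 array, against 3.53 to 6.37 in uninjured arteries; at day 28 it was 1.89 to 2.08, and at day 1, where neither was called, 2.94 to 5.13. Of the 4 leukocyte miRNAs miR-223, miR-142-3p, miR-142-5p and miR-150, 3 were higher at each day, with sums of 25.4 to 28.1 in day 1 arteries, 12.6 to 16.9 in day 7 arteries, 9.75 to 15.5 in day 14 arteries and 8.07 to 11.1 in day 28 arteries, against 1.53 to 1.91 in uninjured arteries; miR-150 was at the floor on all uninjured arrays. The fat-associated miR-193b, miR-365 and miR-378 summed to 2.07 to 2.77 at day 7 and 2.47 to 2.70 at day 14, against 8.37 to 11.5 in uninjured arteries, and 2 of 3 and 3 of 3 were lower. Their sum was also below the uninjured arrays at day 1 (3.57 to 6.71, with 1 of 3 lower, miR-193b). At day 28 it was 2.88 to 5.05, with 2 of 3 lower, miR-193b and miR-378. Of the 3 nerve miRNAs, miR-124 and miR-137 were lower at day 7 (summed signal with miR-9 0.0875 to 0.128, against 0.644 to 1.63), and miR-9 was at the floor on all arrays of both groups. At day 14 miR-124 and miR-137 were again called lower (log2 -2.05 and -2.39), with an array at the floor for both. Neither was called at day 1 (log2 0.52 and 1.12) or day 28. At day 28 both were still lower with a wide spread, miR-124 by log2 -0.88 ± 0.70 SE and miR-137 by -0.95 ± 0.76. The summed nerve signal was then 0.284 to 0.672. The part of these cell types in the miR-30 differences was not tested.

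The remaining marker lists were those of endothelium, red blood cells and striated muscle. miR-126-3p, of endothelium, was higher at day 7 (log2 0.45) and not called on the other days. None of the 3 red blood cell miRNAs miR-451, miR-144 and miR-486 was called on any day, and their sum ran from 15.1 to 27.7 at day 7, against 16.3 to 42.9 in uninjured arteries. Of the 4 striated muscle miRNAs miR-1, miR-133a, miR-133b and miR-206, 0 were called at day 1, 1 was lower at day 7, 2 at day 14 and 3 at day 28, and their sum was 3.86 to 7.25 at day 7, against 7.97 to 12.2 in uninjured arteries. At day 28 the sum was 2.455 to 5.24, and the median log2 difference of the 4 was -1.28.

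The miR-30 guides are known to act on matrix genes alongside miR-133 and miR-29, which represses collagens, so these 5 partners were read out too. At day 7, 3 of miR-133a, miR-133b, miR-29a, miR-29b and miR-29c were lower and 0 higher: miR-133a by log2 -1.69 ± 0.45 SE (limma adjusted p = 0.00614), miR-29c by -1.31 ± 0.14 (adjusted p = 6.38e-06) and miR-29a by -0.79 ± 0.14 (adjusted p = 0.000504). At day 14, 3 were again lower, namely miR-133a, miR-29b and miR-29c (log2 -1.45, -0.50 and -1.31). At day 28 the 3 lower ones were miR-133a, miR-133b and miR-29c (log2 -1.72, -1.34 and -0.45), and at day 1 only miR-29b was called, as higher (log2 0.94). miR-29b thus had a higher day 1 value and no call at day 7 (log2 0.0027), as did miR-30b.

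Of all other tested miRNAs, the 5 whose scaled level was most like the mean of the 5 guides over the 16 arrays were miR-29c* (r = 0.94), miR-23b (r = 0.94), miR-29c (r = 0.93), miR-107 (r = 0.90) and miR-101a (r = 0.89). They had log2 differences at day 7 between -0.68 and -1.56, and all 5 were called lower at day 7 and at day 14. At day 28, 3 of them were still lower (miR-29c*, miR-29c and miR-107, log2 -0.65, -0.45 and -0.39). Most opposite were miR-503 (r = -0.91), miR-34c (r = -0.90) and miR-411 (r = -0.89), which were higher at day 7 by log2 3.02, 1.90 and 1.46. These correlations describe 16 arrays in 5 groups and share the arrays, slides and scaling. Both sets were chosen by them, so their lower or higher levels at day 7 and day 14 largely follow from the choice.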

How the data were processed

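Total RNA was hybridized to 1-colour (Cy3) Agilent mouse miRNA arrays. Per the file headers, the deposited intensity of each spot came from Feature Extraction 9.5.1.1, with background taken from negative controls and spatial detrending; the deposited value table holds gene-level intensity, and its making is not given in the sources used here. Spots with an outlier mark were dropped, the rest averaged by probe, divided by each array's 75th percentile, floored at 0.0181 (log2 -5.79) and put on the log2 scale; the brightest probe stood for each miRNA. The 322 miRNAs for which 1 group or more had a detected signal throughout were fitted with limma 3.58.1 in R 4.3.3 as 1 model of 5 groups, with Benjamini-Hochberg adjustment within each comparison at 0.05. All 8 members were named, with the 5 miRNAs most like the guides and the 3 most opposite. The members and lists were chosen with earlier results of these data known. In 20 simulations of day 7 against uninjured, run on 322 miRNAs, 25.5%, 61.8% and 86.8% of log2 changes of 0.5, 1 and 2 were recovered. With 3 arrays against 3, an exact permutation test cannot go below 0.1. Alternatives were other scalings, background, filters, floor, probe summary, signal column, slide and replicate blocks, other moderation and each array left out; leaving out the 2 arrays that stood apart, slide in the guide-pair test, and quantile normalization of differences within an array were added after seeing the data. The labels give 3 to 4 animals per group; precision is limited by this number of arrays. Sequences are from RefSeq, GRCm38.p6.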

Additional observations from a re-analysis of the deposited data

Results flagged for a closer look

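The effect of injury differed between successive days for several members, tested as the difference between the days themselves (limma, Benjamini-Hochberg adjusted p under 0.05). Between day 7 and day 1 the log2 difference was -0.76 for miR-30a, -0.54 for miR-30a*, -0.66 for miR-30b, -1.16 for miR-30c, -0.60 for miR-30d, -0.69 for miR-30e and -0.54 for miR-30e*, each lower in all 3 day 7 arrays than in any day 1 array. Between day 14 and day 7 it was 0.67 for miR-30b*, and the 2 groups lie on different slides. Between day 28 and day 14 it was 0.50 for miR-30a*, 0.83 for miR-30b, 0.97 for miR-30c, 0.55 for miR-30e and 0.63 for miR-30e*. No member had a day 28 array far from its fellows by Dixon's test (8 tests). Groups of 3 arrays were not tested in this way.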

How the results depend on the processing

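On each of the 4 days the guide median lay below the median of all tested miRNAs under the 5 scalings, whereas counts of calls and signed values moved. At day 1 under quantile normalization it lay below by only -0.020. Single guides did not all keep their side: relative to that median miR-30e at day 1 was -0.24 with the main scaling and 0.12 under quantile normalization. Counts below are of the 8 members, and medians are over the 5 guides, as log2 differences. Here and above, counts under other settings stand without the share of all tested miRNAs called under that setting. They therefore do not separate the family from a shift of all miRNAs. At day 1 the median over all tested miRNAs was 0.24 with the main scaling. It was -0.30 with the 75th percentile of every mouse probe and -0.33 with median scaling. Scaling to the 75th percentile of every mouse probe gave a median of -0.74 for day 1 and counts of 0 for day 28, 1 for day 7 against day 1, 0 for day 14 against day 7 and 2 for day 28 against day 14; it turned day 1 values of miR-30b (-0.15) and miR-30e (-0.63) and miR-30e in day 14 against day 7 (0.040). Median scaling gave 7 calls for day 1, 2 for day 28, 1 for day 7 against day 1, 0 for day 14 against day 7 and 2 for day 28 against day 14, with medians of -0.76, -1.23, -0.95 and -0.46 for the 4 days; it turned miR-30b (-0.17) and miR-30e (-0.65) for day 1, miR-30c (-0.035) in day 14 against day 7 and miR-30b* (-0.013) in day 28 against day 14. Quantile normalization gave 4, 0 and 3 calls between successive days and turned miR-30e for day 1 (-0.0051) and miR-30a* in day 7 against day 1 (0.12); added after seeing the data for differences within an array, it gave 2 strand pairs for day 1, 0 for day 7 and 8 guide pairs, and turned the miR-30a strand difference for day 1 (0.66).

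Without scaling 0 members were called in any comparison or by the F test (7, 7 and 8 with the scaling used, for day 7, day 14 and F), and the medians were 0.13, -0.10, -0.047 and 0.45. The values that turned were, for day 1, miR-30c 0.13 and miR-30e* 0.21; for day 7, miR-30b 0.78, miR-30b* 0.10, miR-30e 0.28 and miR-30e* 0.39; for day 14, miR-30b 0.19 and miR-30b* 0.47; for day 28, miR-30a 0.0040, miR-30a* 0.23, miR-30b* 0.46, miR-30c 0.39, miR-30d 0.45, miR-30e 0.48 and miR-30e* 0.43. In day 7 against day 1 they were miR-30a* 0.18, miR-30b 0.058, miR-30d 0.12, miR-30e 0.036 and miR-30e* 0.18, in day 14 against day 7 miR-30a* -0.13 and miR-30c -0.25, and in day 28 against day 14 miR-30b* -0.011.

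Normexp background gave 1 member for day 1, 1 strand pair for day 7, and 0 and 3 members for day 14 against day 7 and day 28 against day 14, with miR-30b* at -0.087 in day 7 against day 1. Dropping the filter, or keeping only miRNAs detected on all arrays, gave 2 strand pairs for day 1. Averaging over probes gave 2 members for day 28 and 0 for day 14 against day 7, turned the miR-30e strand difference to -0.10, -0.37 and -0.14 for day 1, day 14 and day 28, and put miR-30e for day 1 at -0.11. It also called the miR-30e strand difference for day 7 (-0.50, limma adjusted p = 0.0182). The total gene signal gave medians of -1.31 and -0.48 for day 7 and day 28, 1 strand pair for day 7, and 3, 0 and 1 members for day 28, day 14 against day 7 and day 28 against day 14; it turned miR-30e for day 1 (-0.079), miR-30b* in day 7 against day 1 (-0.10), miR-30e in day 14 against day 7 (0.10) and miR-30b* in day 28 against day 14 (-0.073). The deposited value table gave 2 members for day 1, medians of -1.27 and -0.41 for day 7 and day 28, 1 strand pair for day 7 and 2, 0 and 1 members in the other 3, with miR-30e for day 1 at -0.018, miR-30b* at -0.12, miR-30e at 0.090 and miR-30b* at -0.048 in the 3 successive comparisons.

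With slide as a fixed block the counts were 0 for day 1, 4 for day 7 (median -0.90), 0 for day 28, 0 for day 14 against day 7 and 4 for day 28 against day 14, no strand pair was called for day 1 or day 7 (0 of 3 each), and 6 guide pairs remained. It turned the miR-30b strand difference for day 7 (-0.076), miR-30b* for day 28 (0.11) and miR-30a* in day 14 against day 7 (-0.25). Slide as a random block gave 1 strand pair for day 7 and 0 members for day 14 against day 7. Within 1 slide, counts were 0 for day 28 and 0 for day 28 against day 14, with miR-30b* for day 28 at 0.11. Fits on the 2 groups compared gave 0 for day 28 and 2 for day 14 against day 7, and leaving out the 2 arrays that stood apart gave 0 for day 14 against day 7 and 2 for day 28 against day 14. The cause of these changes was not tested.

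Replicate numbers did not pair arrays: same-numbered arrays had a median correlation of deviations of -0.06 (n = 30), against 0.01 for the other pairs (n = 72), and 4 of 16 arrays correlated best with their own number. With a replicate block the counts were 7 for day 7, 6 for day 14, 1 strand pair for day 28 and 0 members for day 14 against day 7, with miR-30b* in day 28 against day 14 at -0.070. Replicate block and slide block together gave 0, 1 and 0 members for day 1, day 7 and day 28, 0 for day 14 against day 7 and day 28 against day 14, 0 strand pairs for day 1 and day 7, and turned miR-30e* for day 1 (0.13), miR-30b* for day 28 (0.19) and, in day 14 against day 7, miR-30a* (-0.29) and miR-30c (-0.017).

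Leaving out 1 array at a time gave 2 to 5 members for day 1, 0 to 2 for day 28, 0 to 2 for day 14 against day 7 and 2 to 6 for day 28 against day 14. Strand pairs ran from 1 to 2 for day 1, 1 to 2 for day 7 and 0 to 1 for day 28. Guide medians ran from -0.25 for day 1 (without uninjured replicate 3) to 0.018 (without uninjured replicate 1), -1.22 to -0.90 for day 7, -0.86 to -0.61 for day 14 and -0.34 to -0.065 for day 28. Values near 0 crossed it: the miR-30e strand difference (-0.11 to 0.16, -0.26 to 0.016, -0.013 to 0.26 and -0.10 to 0.17 for the 4 days), miR-30c (-0.25 to 0.018), miR-30e (-0.15 to 0.10) and miR-30e* (-0.17 to 0.078) for day 1, miR-30b* in day 7 against day 1 (-0.037 to 0.10), miR-30c (-0.0022 to 0.15) and miR-30e (-0.11 to 0.056) in day 14 against day 7, and miR-30b* in day 28 against day 14 (-0.09 to 0.14).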
